A study of Mus musculus with 42 samples.

Results

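The kidney transcriptome of mice fed EpSA was compared with that of chow-fed mice at zeitgeber time (ZT) 17, in the dark phase, when mice are active. The comparison comprised 6 of the 42 samples, 3 kidneys per diet. All groups were wild-type (WT) male C57BL/6 mice kept under 12 h of light and 12 h of darkness, 6 weeks old when the diets began and fed for 14 weeks. The control group at ZT 17 received standard chow, and the EpSA group at ZT 17 received a high-fat diet with 3% EpSA, a compound the series title places with thermally abused frying oil, renal injury and oxylipins. The added fat and EpSA therefore differed together between the groups and cannot be told apart, because mice on the high-fat diet without EpSA were not analysed here. Kidneys of both diets were also taken at ZT 1, 5, 9, 13, 21 and 25, from different mice at each time.

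The deposited tables hold 1 mean per diet and time, so each diet had 1 value per gene at ZT 17, read as FPKM (fragments counted per transcript length and per library size). The spread between mice was not given, and no test between the diets at ZT 17 itself was possible. Of 56691 deposited genes, the 13344 with a mean of at least 1 FPKM over the 14 means were compared, as the difference of log2(FPKM + 1), EpSA minus chow. A gene was counted as apart where this difference was at least 1, and more loosely where it was at least 0.5. The labelled tissue matched its markers at ZT 17. The proximal tubule gene Kap was at 38126 FPKM in chow and 32674 in EpSA, and the thick limb gene Umod at 755 and 679. Of 10 adrenal markers, Cyp11b2 and Th were listed at 0 in both diets, and the adrenal sum was 1.51 FPKM in chow and 1.53 in EpSA. At ZT 9 the median diet difference of the 4 adrenal markers compared was 4.43. The highest adrenal sum among the other EpSA times was 130.1 FPKM. The EpSA minus chow difference at the 6 other times, ZT 9 included, stood in for the missing replicate error. Limma tested across all 13344 genes whether the ZT 17 difference departed from those times.

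Kidney cells carry a molecular clock in which BMAL1 (encoded by Arntl) and CLOCK drive their own repressors, the period and cryptochrome genes, together with REV-ERB receptors and output factors such as Dbp, so that levels of these genes swing over the day. Cells also hold chaperone systems that rise with unfolded protein: heat shock proteins in the cytosol, and a set in the endoplasmic reticulum (ER) governed by the unfolded protein response. Fatty acids act on the receptor PPARalpha, which in kidney governs genes of fatty acid oxidation and the Cyp4a hydroxylases.

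At ZT 17, 41 genes (0.307% of those compared) were at least 1 higher in EpSA and 25 (0.187%) were at least 1 lower. At the looser threshold 371 genes (2.78%) were higher and 150 (1.12%) were lower, and 7687 (57.6%) lay on the higher side at all. The median difference over all genes was 0.03. In the same count, 128 genes were at least 1 apart at ZT 13 and 232 at ZT 21. Just inside the threshold of 1 was Plet1, a surface protein of epithelial progenitors, at 14.8 FPKM in chow and 30.8 in EpSA (difference 1.01), and just outside was Creld2 (0.98). On the lower side Rnf24 (-1.03) was just inside and Srd5a2 (-0.97) just outside.

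Many of the genes apart had a ZT 17 mean at the edge of its own time course. Among the 371 genes higher in EpSA, the chow mean at ZT 17 was the lowest of the 7 chow means for 126 (34.0%, against 18.6% of all genes), and the EpSA mean was the highest of the 7 EpSA means for 167 (45.0%, against 11.4%). Among the 150 lower genes, chow at ZT 17 was the highest of its 7 means for 48 (32.0%, against 8.67%), and EpSA the lowest of its 7 for 61 (40.7%, against 9.18%). These ranks use the same ZT 17 means that placed the genes in the sets, so they describe the sets and support nothing further. With limma, 0 of 13344 genes (0.0%) had a ZT 17 difference departing from the other times at an adjusted p under 0.05. The lowest adjusted p was 0.999, and 459 genes had an unadjusted p under 0.05, where 667 would be expected if p-values were spread evenly. No gene below can therefore be called particular to ZT 17, and the lists were not tested, so none of them can be either. The error in this test holds any diet difference that varied among the other times. With ZT 21 left out, limma gave 847 genes an unadjusted p under 0.05 and 0 an adjusted p under 0.05.

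**Figure D1:**
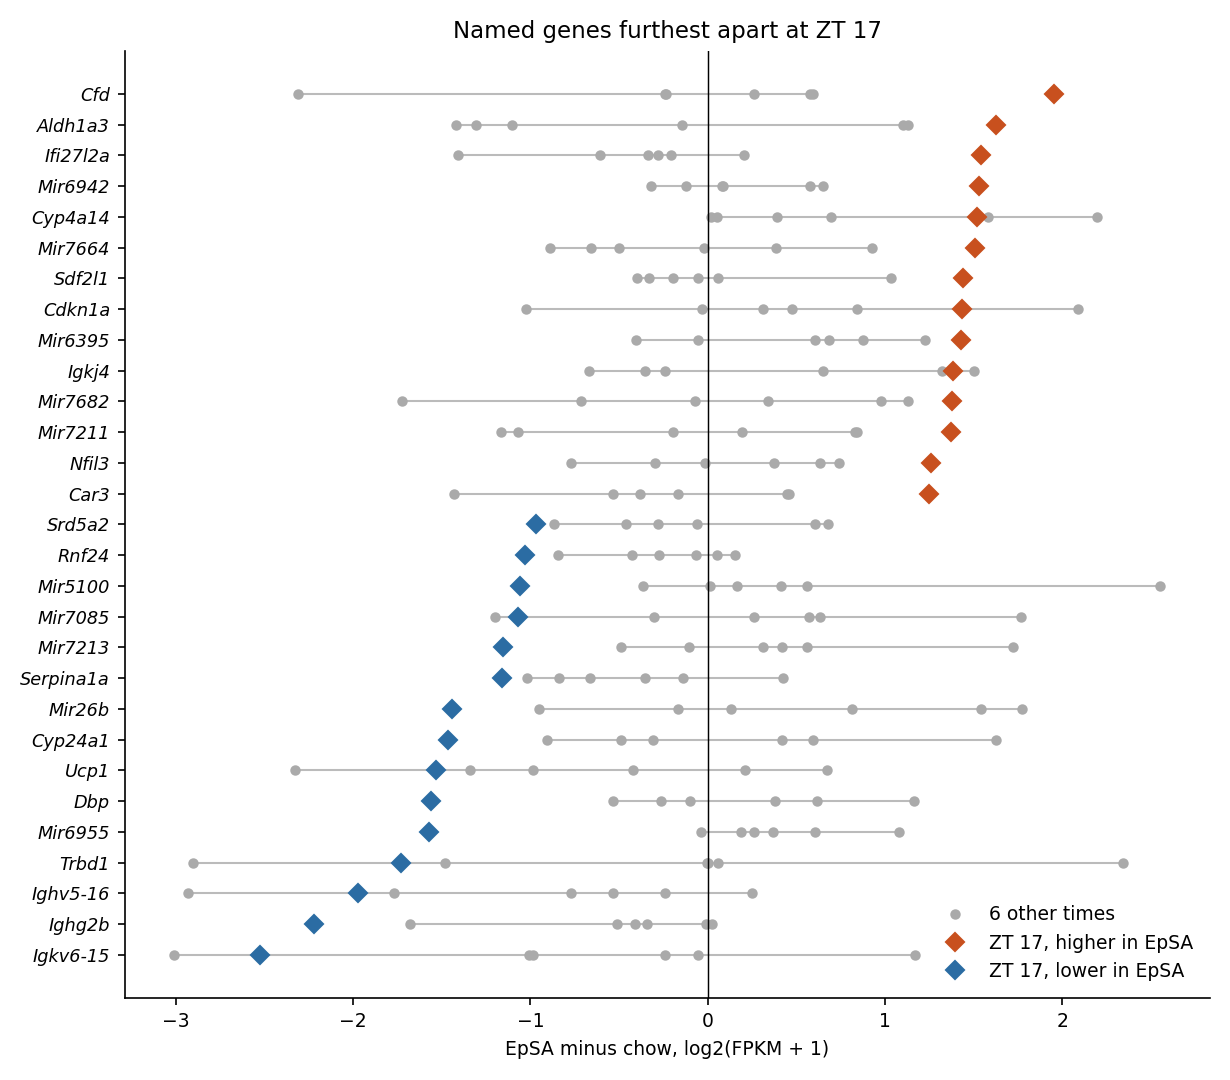
EpSA minus chow difference in log2(FPKM + 1) for 14 named genes with the highest and the 15 with the lowest value at ZT 17 (diamonds), with the differences at the 6 other times (grey points, joined by a line from lowest to highest). Cfd stood highest at 1.95 and Igkv6-15 lowest at -2.53, and for genes such as Cyp4a14, Cdkn1a, Ucp1 and Igkv6-15 another time lay further out on the same side.

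Clock genes differed in a common direction along the daily cycle. The EpSA level at ZT 17 was displaced from the chow level at ZT 17 toward the chow level at ZT 21, the next time sampled, for 17 of 18 tested clock genes (94.4%), against 55.4% of all genes. It was displaced toward the chow level at ZT 13 for 1 (5.56%), against 53.1% of all genes. Both shares use the same chow ZT 17 mean and count direction only, so a small difference such as that of Cry2 (-0.02) counts in full. For a gene that rises or falls steadily in chow from ZT 13 to ZT 21, the first share fixes the second. Over the 18 genes, the root-mean-square distance of EpSA at ZT 17 in log2(FPKM + 1) was 0.552 to chow at ZT 21, 0.612 to chow at ZT 17, 0.769 to chow at ZT 25 and 0.941 to chow at ZT 13. The distances to ZT 21 and ZT 17 lay close together. Clock genes are not independent of each other, and with 1 mean per diet and time a shift of the phase of the cycle was not tested.

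The largest differences were in output factors and repressors. Dbp, a transcription factor that acts through D-box elements (chr7:45705088-45710203, GRCm38, plus strand), was at 19.7 FPKM in chow and 6.00 in EpSA at ZT 17, a difference of -1.56. At the 6 other times Dbp ranged in chow from 1.21 to 32.0 FPKM with a median of 4.43, and in EpSA from 1.95 to 38.9 with a median of 8.81. Both diets were on the falling side of the Dbp cycle at ZT 17, and the EpSA mean was the lower; at ZT 5 and ZT 9 the order was the opposite, with EpSA above chow (15.2 against 6.25 and 38.9 against 29.8 FPKM). Its relatives Tef (48.5 to 35.8 FPKM from chow to EpSA, -0.43) and Hlf (23.5 to 21.7, -0.11) were lower by less.

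Nfil3, which represses at the same D-box elements (chr13:52967209-52981073, GRCm38, minus strand), lay the other way, at 2.80 FPKM in chow and 8.07 in EpSA, a difference of 1.26. In chow Nfil3 ranged from 1.56 to 9.09 FPKM at the other times, so the EpSA mean at ZT 17 was within the daily range of chow and above the chow mean at ZT 21 (7.36). Ciart, a repressor of CLOCK and BMAL1, was at 3.42 FPKM in chow and 1.30 in EpSA (-0.94). By ZT 21 chow was at 0.860 FPKM and EpSA at 1.09. Among the REV-ERB and ROR receptors, which repress and activate Arntl, Nr1d1 was at 8.003 FPKM in chow and 4.33 in EpSA (-0.76), Nr1d2 at 25.2 and 19.9 (-0.32), and Rora at 4.75 and 3.86 (-0.24).

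The activators and the period and cryptochrome genes were closer. Arntl was at 0.907 FPKM in chow and 1.45 in EpSA (0.36), Clock at 3.78 and 4.66 (0.24), and Npas2 at 0.343 and 0.463 (0.12). Cry1 was at 3.54 FPKM in chow and 5.74 in EpSA (0.57), while Cry2, at 4.63 and 4.55, differed by -0.02. Per2, the 1 tested clock gene not displaced toward ZT 21, was at its daily peak in both diets, at 14.7 FPKM in chow and 19.6 in EpSA (0.39), and Per1 (-0.12) and Per3 (-0.09) were slightly lower. Bhlhe40, another repressor, differed by -0.11, and Bhlhe41 was under the filter on low values. Limma's unadjusted p for departure from the other times was under 0.05 for Nfil3, Per1, Ciart, Dbp and Tef, and the adjusted p was 0.999 for each.

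Clock-controlled kidney genes did not share 1 direction. Of 14 tested, 10 were higher (57.6% of all genes were) and 4 lower, the furthest of these at -0.38. By at least 0.5, 2 were higher (2.78% of all genes): Cdkn1a, a cell cycle inhibitor, and Slc16a1, a monocarboxylate transporter. Slc16a1 was at 9.36 FPKM in chow and 17.0 in EpSA (0.80). Leo1, a subunit of an RNA polymerase-associated complex, was at 2.70 and 4.14 FPKM (0.48) and Tfrc, the transferrin receptor, at 14.4 and 19.4 (0.41).

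**Figure D2:**
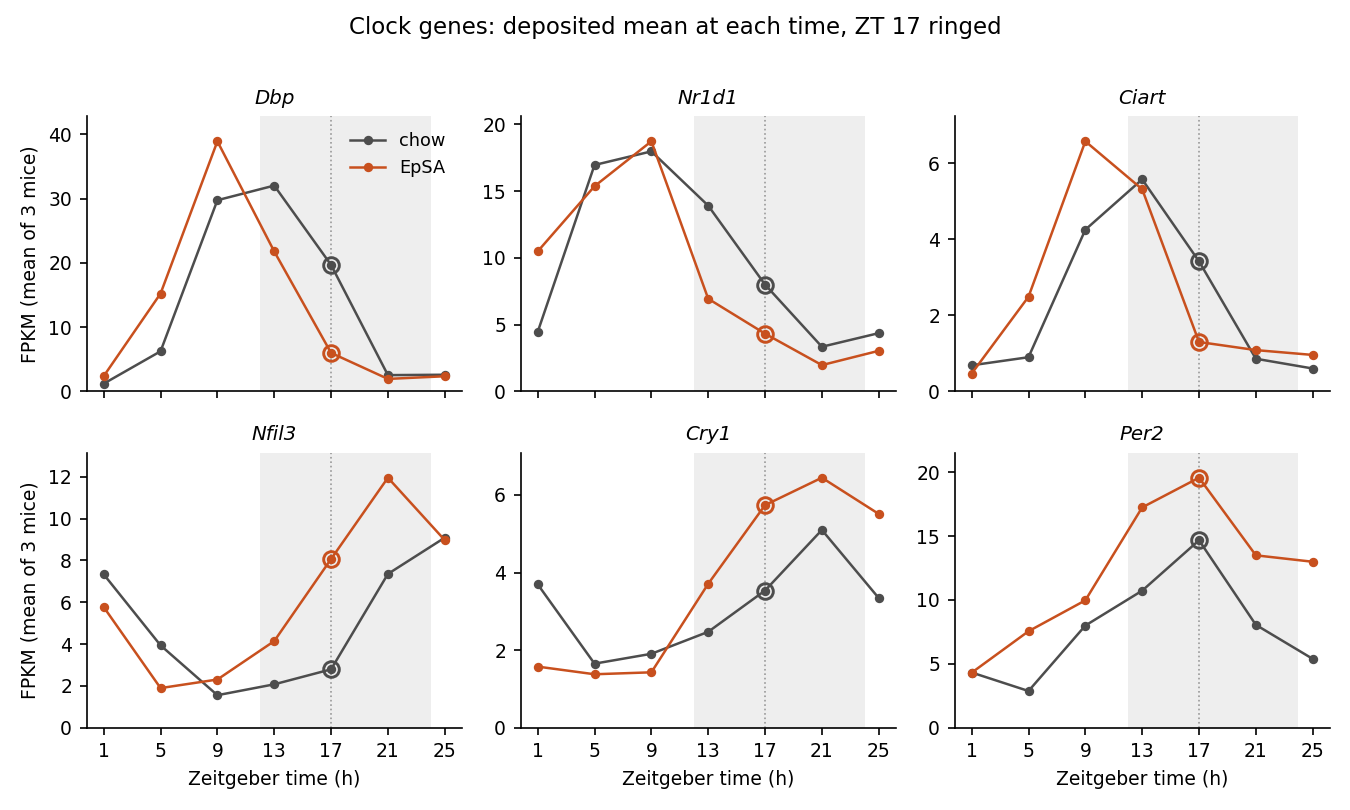
Deposited mean FPKM of 6 clock genes at 7 zeitgeber times in chow (grey) and EpSA (orange), each point the authors' mean of 3 mice, with ZT 17 ringed and the dark phase shaded. Dbp, Nr1d1 and Ciart were lower in EpSA at ZT 17 while falling in both diets, and Nfil3, Cry1 and Per2 were higher.

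The promoters of Ciart and Nfil3 are shown because these genes lay in opposite directions at ZT 17 and their windows hold different clock motifs. Both are RefSeq windows on GRCm38.p6 from 250 bases before to 50 after the annotated start, printed 5′ to 3′ on the gene's strand, at chr3:95882179-95882478 (minus) for Ciart and chr13:52980990-52981289 (minus) for Nfil3. Capitals mark CACGTG, the E-box that CLOCK and BMAL1 bind, in Ciart (3 matches), and TAGGTCA, the core of the element that REV-ERB and ROR receptors bind, in Nfil3 (1 match, read on the opposite strand).
Ciart: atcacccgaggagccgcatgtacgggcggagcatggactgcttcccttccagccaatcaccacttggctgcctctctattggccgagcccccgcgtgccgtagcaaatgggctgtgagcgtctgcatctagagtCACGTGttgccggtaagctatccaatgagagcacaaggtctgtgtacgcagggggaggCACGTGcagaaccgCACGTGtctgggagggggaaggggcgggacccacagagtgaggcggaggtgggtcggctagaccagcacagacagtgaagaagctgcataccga
Nfil3: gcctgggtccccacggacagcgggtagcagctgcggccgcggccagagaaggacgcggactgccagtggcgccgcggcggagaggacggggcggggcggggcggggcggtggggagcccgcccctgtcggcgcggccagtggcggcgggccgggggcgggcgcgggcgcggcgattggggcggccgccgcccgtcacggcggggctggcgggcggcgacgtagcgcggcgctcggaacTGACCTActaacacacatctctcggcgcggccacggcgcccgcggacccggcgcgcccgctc
Both motifs were searched on both strands of 32851 promoters, of which 7.15% held CACGTG and 2.61% held TAGGTCA. Of 15 clock genes with a promoter in the table, Per1, Cry1, Ciart and Tef held CACGTG, Arntl and Nfil3 held TAGGTCA, and Per3 held the D-box TTATGTAA, which 0.938% of all promoters hold. A match is a description of these letters and not a bound site. Of the 4 genes with CACGTG, Cry1 was higher in EpSA at ZT 17 and the others lower, and both genes with TAGGTCA were higher.

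Chaperone genes of the ER were higher in EpSA as a group. All 20 tested members of the ER folding list were on the higher side (57.6% of all genes were), 7 of them by at least 0.5 (2.78% of all genes) and none was lower, with a median of 0.39 against 0.03 over all genes. Sdf2l1, a component of an ER chaperone complex (chr16:17130138-17132383, GRCm38, minus strand), was at 4.60 FPKM in chow and 14.2 in EpSA, a difference of 1.44. In chow it ranged from 4.43 to 10.4 FPKM at the other times with a median of 7.31, and in EpSA from 3.39 to 14.6 with a median of 7.37. The chow mean at ZT 17 was the fifth lowest of the 14 means, and the EpSA mean was the second highest after EpSA at ZT 25.

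Hspa5, the central ER chaperone BiP, followed the same order at a far higher level, with 123 FPKM in chow and 233 in EpSA at ZT 17 (0.92), between 98.6 and 231 in chow at the other times and between 86.9 and 252 in EpSA. Creld2, a disulfide isomerase of the ER, was at 26.2 and 52.4 FPKM (0.98), and Manf, a secreted factor made during ER stress, at 19.2 and 36.8 (0.91). For both, EpSA at ZT 17 was the highest of the 14 means. Hyou1, a large ER chaperone, was at 15.6 and 25.7 FPKM (0.69), Hsp90b1 (GRP94) at 113 and 178 (0.65), and Pdia4, a disulfide isomerase, at 40.3 and 59.7 (0.55). The signalling factors of the unfolded protein response differed less: Ddit3 was at 9.83 and 13.0 FPKM (0.37), Xbp1 at 47.7 and 54.1 (0.18) and Atf4 at 44.5 and 48.5 (0.12).

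ER chaperones also differed between times of day within chow. In chow, Hspa5 had a mean of 123 FPKM at ZT 17 but 231 FPKM 4 h later, near the EpSA mean of 233 FPKM at ZT 17. At the other times the list median lay between -0.20 and 0.34, and the highest of these was at ZT 25. Sdf2l1 differed from chow by 1.03 at ZT 25, when EpSA was at 14.6 FPKM and chow at 6.63.

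The promoters of Hspa5, Hsp90b1 and Creld2 are shown as those of 3 members at least 0.5 higher that hold the ER stress response element, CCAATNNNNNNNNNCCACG, in capitals. They lie on GRCm38.p6 (RefSeq) at chr2:34771840-34772139 (plus), chr10:86705395-86705694 (minus) and chr15:88819396-88819695 (plus), and are printed on the gene's strand.
Hspa5: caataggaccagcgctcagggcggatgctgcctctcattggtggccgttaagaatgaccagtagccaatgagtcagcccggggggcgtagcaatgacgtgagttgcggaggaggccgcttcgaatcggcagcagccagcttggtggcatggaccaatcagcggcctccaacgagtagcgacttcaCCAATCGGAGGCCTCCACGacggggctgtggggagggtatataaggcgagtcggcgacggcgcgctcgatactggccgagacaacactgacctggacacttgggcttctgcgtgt
Hsp90b1: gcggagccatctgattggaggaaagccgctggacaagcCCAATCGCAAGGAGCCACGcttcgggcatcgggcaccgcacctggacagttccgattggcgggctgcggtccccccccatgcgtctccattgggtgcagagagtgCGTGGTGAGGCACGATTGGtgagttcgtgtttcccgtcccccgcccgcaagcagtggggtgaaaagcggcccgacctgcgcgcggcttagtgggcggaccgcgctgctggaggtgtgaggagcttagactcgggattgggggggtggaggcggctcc
Creld2: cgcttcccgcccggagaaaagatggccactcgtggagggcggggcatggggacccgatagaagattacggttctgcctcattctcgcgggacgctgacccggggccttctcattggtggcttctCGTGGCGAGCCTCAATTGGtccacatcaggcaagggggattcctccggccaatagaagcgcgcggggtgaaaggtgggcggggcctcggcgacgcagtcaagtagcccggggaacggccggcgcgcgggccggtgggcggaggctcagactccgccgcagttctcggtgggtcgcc
Hspa5 had 1 match, Hsp90b1 had 2, 1 of them on the opposite strand, and Creld2 had 1 on the opposite strand. The element was searched on both strands; it contains the CCAAT box, and its CCACG end can overlap an E-box. It was in 39 of 32851 promoters (0.119%), and in 7 of the 18 list members with a promoter in the table: Hspa5, Hsp90b1, Dnajc3, Pdia6, Calr, Canx and Creld2. Dnajc3 and Canx, which also hold it, each differed by 0.14 at ZT 17. Sdf2l1, Manf, Hyou1 and Pdia4, also at least 0.5 higher, were not among these 7.

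Heat shock genes of the cytosol and mitochondria were higher as well, all 14 tested (57.6% of all genes were), 7 by at least 0.5 (2.78% of all genes). Their median was 0.49, against -0.175 to 0.251 at the other times. Hspa1b, an inducible HSP70, was at 11.4 FPKM in chow and 20.3 in EpSA (0.78), and its near-identical copy Hspa1a at 4.68 and 7.44 (0.57), though reads of such copies can be split between them by the authors' counting. Hsp90aa1, inducible HSP90, was at 55.0 and 86.7 FPKM (0.65), Chordc1, a co-chaperone of HSP90, at 8.88 and 13.4 (0.55), Hsph1, an HSP110, at 26.3 and 38.7 (0.54), and Hspa8, the constitutive HSP70, at 253 and 352 (0.48). The mitochondrial pair Hspd1 and Hspe1 was nearly level, differing by 0.03 and 0.16. ZT 17 was not the time of the largest difference for every member: Hspa1b and Hspa1a were higher in EpSA by 0.92 and 1.31 at ZT 1. The heat shock element, searched on both strands as GAA, any 2 bases, TTC, any 2 bases and GAA, and present in 0.603% of all promoters, was found in those of Hsph1, Hspd1, Hspe1 and Chordc1, 4 of 10 members with a promoter in the table.

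**Figure D3:**
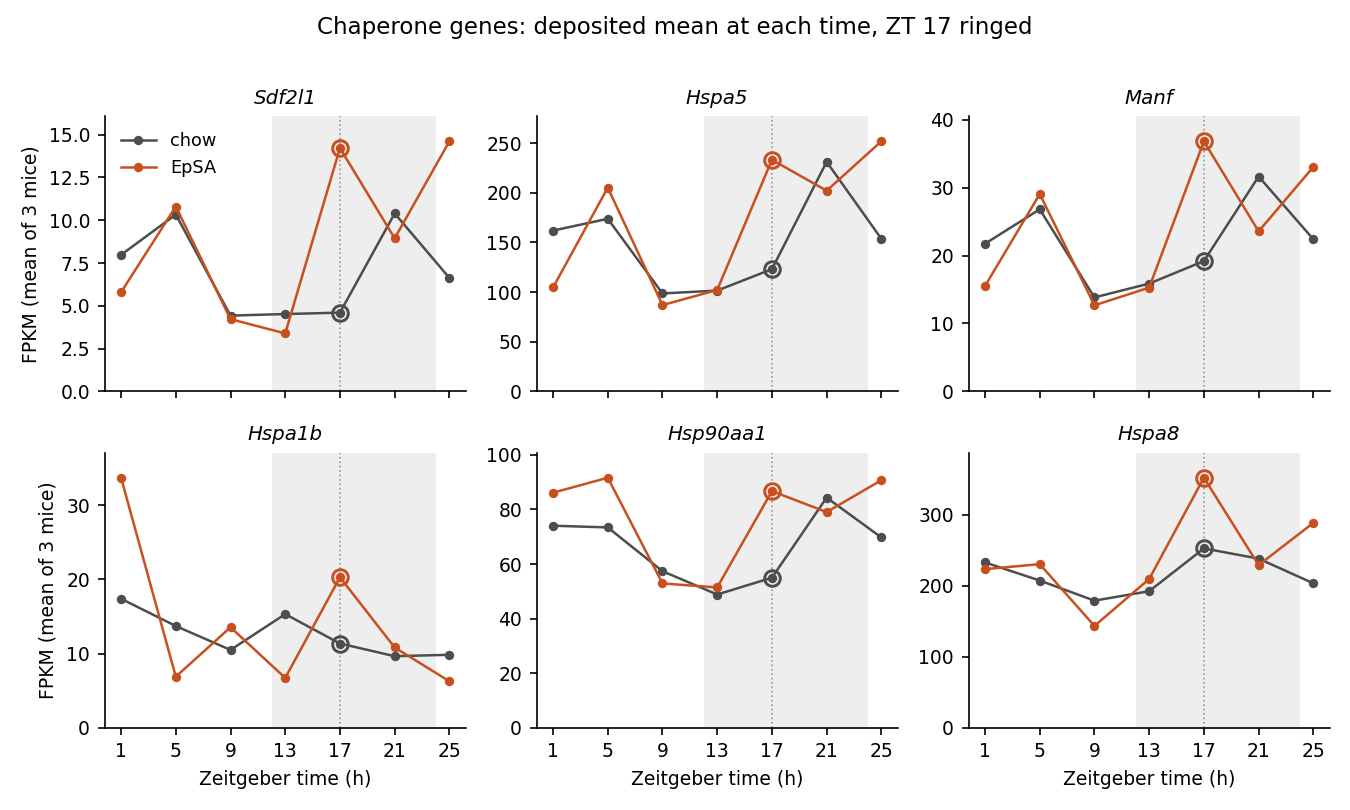
Deposited mean FPKM of 3 ER chaperone genes (upper row) and 3 heat shock genes (lower row) at 7 zeitgeber times in chow (grey) and EpSA (orange), with ZT 17 ringed. All 6 were higher in EpSA at ZT 17, and the EpSA means of Sdf2l1, Hspa5 and Manf were also above chow at ZT 25.

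Among genes of fatty acid oxidation and PPARalpha targets, Cyp4a14 was the furthest apart. Cyp4a14, a fatty acid hydroxylase (chr4:115486200-115496142, GRCm38, minus strand), was at 21.3 FPKM in chow and 62.9 in EpSA at ZT 17, a difference of 1.52. It was higher in EpSA at each of the 6 other times too, by 0.02 to 2.19, with chow between 12.5 and 47.9 FPKM and EpSA between 22.2 and 63.1. Of 29 tested genes of this list, 19 were higher, near the 57.6% of all genes on that side, with a median of 0.14. By at least 0.5, 6 were higher and 1 was lower, against 2.78% and 1.12% of all genes.

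The members furthest apart were targets rather than enzymes of the oxidation spiral. Pdk4, which restrains glucose oxidation, was at 12.7 and 24.9 FPKM (0.92), Angptl4, a lipoprotein lipase inhibitor, at 12.5 and 20.2 (0.65), and Cyp4a10, the relative of Cyp4a14, at 106 and 160 (0.60). Ppara, the receptor's own gene, was lower, at 11.7 FPKM in chow, the highest of all 14 means, and 7.62 in EpSA (-0.55). Cpt1a, which admits fatty acids to mitochondria, was at 64.0 and 51.1 FPKM (-0.32).

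Enzymes that make or clear oxylipins, oxidised fatty acids that the series title names, were mixed. Of 27 tested, 16 were higher, near the 57.6% of all genes on that side, with a median of 0.08. By at least 0.5, 4 were higher and 3 lower, against 2.78% and 1.12% of all genes. Besides the Cyp4a genes above, Ephx1, microsomal epoxide hydrolase, was at 32.9 FPKM in chow and 58.1 in EpSA (0.80), and Hpgd, which inactivates prostaglandins, at 6.54 and 11.2 (0.70). Ephx2, soluble epoxide hydrolase, was at 173 and 206 FPKM (0.26). On the lower side were Cyp4a32 (4.59 to 2.55 FPKM, -0.65), Cyp2j13 (93.2 to 60.9, -0.61) and Cyp4a12a (103 to 67.9, -0.60); the Cyp4a and Cyp2j genes are families of near copies among which reads may be split. Cyp2j5, an abundant kidney epoxygenase, was at 698 and 634 FPKM (-0.14).

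Lipid synthesis was nearly level. Sterol synthesis genes had a median of -0.04, with 9 of 22 higher and none apart by 0.5, and Hmgcs1, an early enzyme of the pathway, was at 138 FPKM in chow and 108 in EpSA (-0.35). Fatty acid synthesis genes had a median of 0.01, with 9 of 16 higher, where 57.6% of all genes were. Pnpla3, a lipase-family protein of lipid droplets, was at 0.977 and 2.69 FPKM (0.90) and Thrsp, a lipogenic regulator, at 6.35 and 10.6 (0.65).

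The highest difference of all named genes was in a fat cell gene. Cfd, the complement factor adipsin (chr10:79890853-79892655, GRCm38, plus strand), was at 21.4 FPKM in chow and 85.7 in EpSA at ZT 17 (1.95). At the other times Cfd ranged from 31.6 to 87.3 FPKM in chow and from 16.8 to 84.3 in EpSA, so chow at ZT 17 was the lowest of its 7 means and EpSA the highest of its 7. At ZT 13 the order was reversed, with 87.3 FPKM in chow and 16.8 in EpSA (-2.31). Levels of such genes in a whole kidney depend on how much tissue of that kind is in the sample, and in bulk RNA fewer cells of a type and less RNA per cell cannot be told apart.

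Of 14 fat tissue markers, 9 were higher in EpSA at ZT 17 (57.6% of all genes were), with a median of 0.62. By at least 0.5, 7 were higher and 2 lower, against 2.78% and 1.12% of all genes. The summed level of the 14 was 330.3 FPKM in chow and 411 in EpSA, and none was at 0. At the other times the sum was 329 to 610 in chow and 210.3 to 637 in EpSA. The members furthest above chow were genes abundant in white fat: Car3, a carbonic anhydrase (28.6 to 69.2 FPKM, 1.25), the hormones Adipoq (8.73 to 18.9, 1.04) and Retn (2.08 to 4.96, 0.95), the lipid droplet proteins Plin1 (2.97 to 6.52, 0.92) and Cidec (8.45 to 15.1, 0.77). Ucp1, the uncoupling protein of brown fat, was at 25.0 and 8.01 FPKM (-1.53), and Lpl, lipoprotein lipase, at 118 and 75.3 (-0.64). The part of adhering fat in any difference reported here, Pdk4, Angptl4 and Pnpla3 included, was not tested.

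Interferon and antigen presentation genes were all on the higher side in EpSA. Of 37 tested, 37 were higher (57.6% of all genes were), with a median of 0.42. By at least 0.5, 16 were higher (2.78% of all genes). Ifit1, an antiviral protein (chr19:34640871-34650009, GRCm38, plus strand), was at 3.80 FPKM in chow and 8.11 in EpSA (0.92), between 2.66 and 8.38 at the other chow times and between 2.71 and 6.64 at the other EpSA times. Both ZT 17 means were within the range of chow. Cxcl10, a chemokine that draws T cells, was at 2.04 and 4.52 FPKM (0.86), Bst2, or tetherin, at 17.1 and 30.7 (0.81), Iigp1, an interferon-inducible GTPase, at 2.77 and 5.14 (0.70), and Irf7, a transcription factor of the pathway, at 6.36 and 10.7 (0.67).

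Members with roles in antigen presentation included B2m, H2-K1 and Ciita. B2m, the shared chain of class I molecules, was at 365 FPKM in chow and 484 in EpSA (0.40), H2-K1, a class I heavy chain, at 87.2 and 101 (0.22), and Ciita, the activator of class II genes, at 0.603 and 0.747 (0.12). Ifi27l2a, an interferon-inducible gene outside the list (chr12:103442167-103443680, GRCm38, minus strand), was at 19.7 FPKM in chow and 59.2 in EpSA (1.54), with chow between 25.9 and 61.5 and EpSA between 19.2 and 48.5 at the other times. The diet difference of the list was not steady over the day: its median lay between -1.48 and 0.54 at the other times. Its summed level was 930.4 FPKM in chow and 1220 in EpSA at ZT 17, against 913 to 3490 in chow at the other times, so 1 or more chow means stood far above both.

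The Ifit1 promoter is shown as that of the list member furthest apart, with the interferon-stimulated response element searched as GAAA, any 2 bases and GAAA, in capitals (2 matches, both on the opposite strand). It is the RefSeq window on GRCm38.p6 at chr19:34640639-34640938 (plus).
Ifit1: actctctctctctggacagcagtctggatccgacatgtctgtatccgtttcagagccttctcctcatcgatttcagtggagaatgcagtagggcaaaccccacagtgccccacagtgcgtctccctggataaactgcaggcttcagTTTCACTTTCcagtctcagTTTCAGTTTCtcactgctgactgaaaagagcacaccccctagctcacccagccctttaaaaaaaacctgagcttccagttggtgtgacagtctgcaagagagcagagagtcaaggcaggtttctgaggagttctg
This motif was in 3.44% of all promoters and in those of 12 of the 26 list members with a promoter in the table, among them Cxcl10, Bst2, Isg15, Rsad2 and B2m.

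Macrophage and lymphocyte markers were mostly on the higher side too, whereas S100a9, the 1 of 7 neutrophil markers that passed the filter, differed by -0.03. Of 15 macrophage markers, 14 were higher in EpSA (57.6% of all genes were), and none was at 0. Their median was 0.24, against -1.07 to 0.06 at the other times. By at least 0.5, 2 were higher (2.78% of all genes). The 2 were Ctss, a lysosomal protease (14.5 to 21.2 FPKM, 0.52), and Cd14, a receptor for bacterial lipid (2.82 to 4.47, 0.52), while Adgre1 (F4/80) differed by 0.23 and Csf1r by 0.08. The summed macrophage level was 366 FPKM in chow and 385 in EpSA, against 358 to 508 in chow and 339 to 384 in EpSA at the other times.

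Of 16 lymphocyte markers 7 passed the filter on low values, and the T and B cell markers Cd3e, Cd4, Cd8a and Cd79a did not. Of those 7, 6 were higher (57.6% of all genes were), 3 by at least 0.5 (2.78% of all genes). Their median was 0.48, and their summed level was 131 FPKM in chow and 132 in EpSA. The median was negative at all 6 other times (-0.70 to -0.13), and at ZT 17 it was 0.223 with a filter at a mean of 5 FPKM and 0.733 with a pseudocount of 0.1. Ighm, the IgM heavy chain, was at 5.80 and 9.71 FPKM (0.65), Trac, a T cell receptor constant gene, at 1.32 and 2.46 (0.58), and Cd79b, a B cell receptor component, at 0.870 and 1.76 (0.56). The part of immune cell content in the interferon genes was not tested.

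Antibody gene segments lay at both extremes. Of 26 antibody and T cell receptor genes compared, 7 were higher by at least 0.5 and 6 lower, against 2.78% and 1.12% of all genes. Igkj4, a kappa joining segment, was at 0.553 FPKM in chow and 3.05 in EpSA (1.38). Igkv6-15, a kappa light chain segment, was at 8.51 FPKM in chow and 0.650 in EpSA (-2.53), and Ighg2b, the IgG2b constant gene, at 6.64 and 0.640 (-2.22). Ighg2b in chow was between 0.750 and 6.17 FPKM at the other times, and ZT 9 was the other high chow mean, so the chow mean at ZT 17 was 1 of 2 that stood apart. Ighv5-16 (4.45 to 0.387 FPKM, -1.97) and the T cell receptor segment Trbd1 (2.32 to 0, -1.73) followed, whereas Igkc, the kappa constant gene that all such light chains share, was at 110 and 101 FPKM (-0.12). With means only, whether 1 mouse held the high chow level cannot be told.

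**Figure D4:**
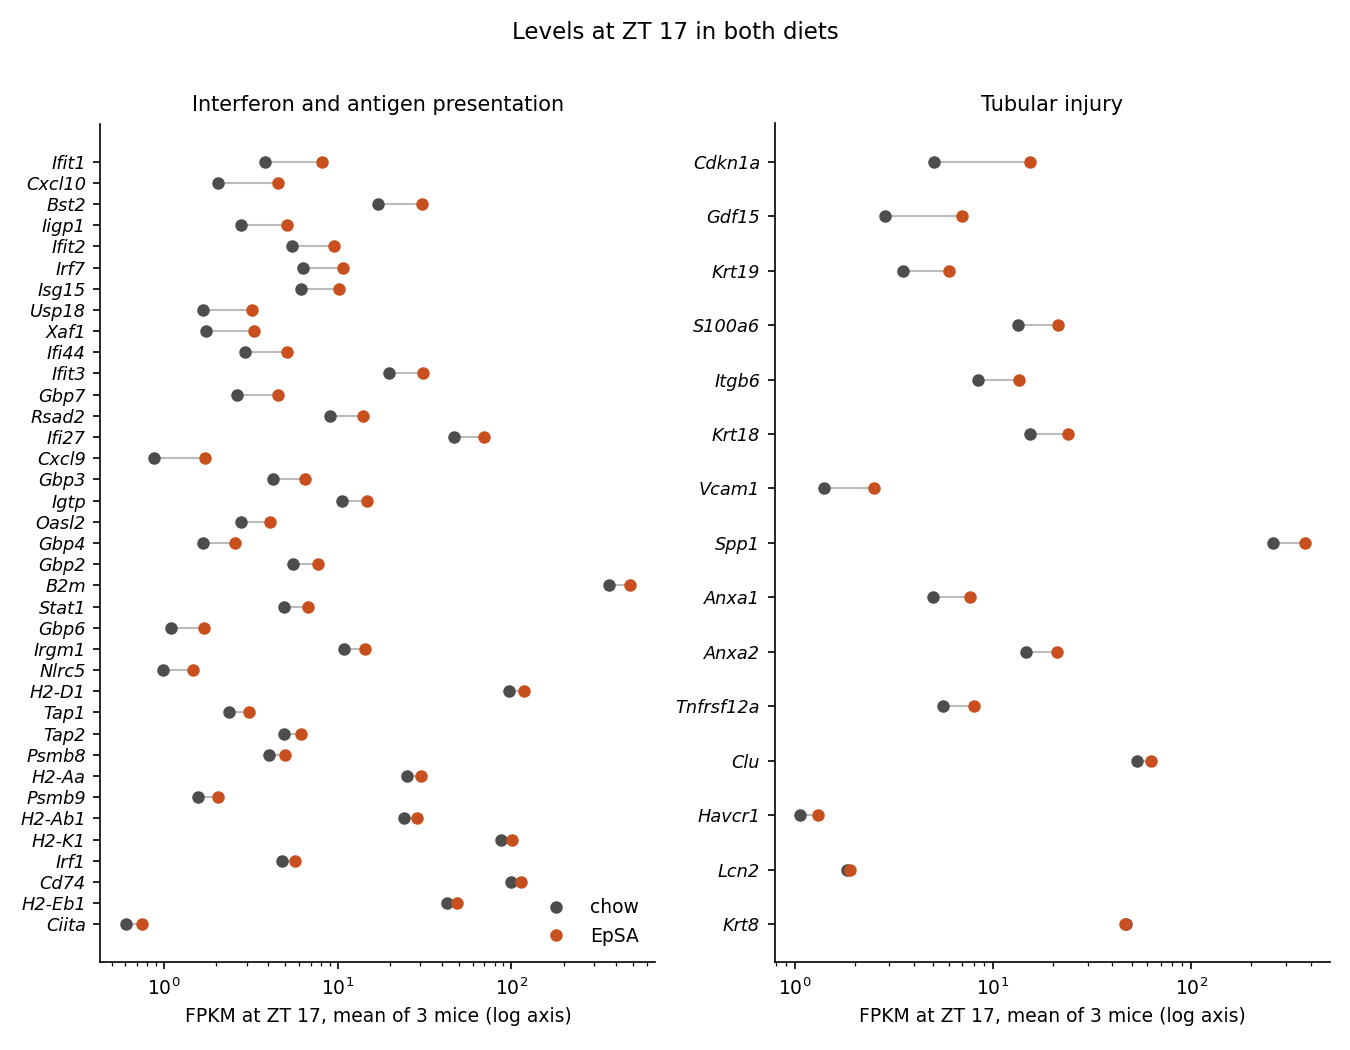
Mean FPKM at ZT 17 on a log axis for the 37 interferon and antigen presentation genes (left) and the 15 tested tubular injury genes (right) in chow (grey) and EpSA (orange), ordered by their difference. All 37 on the left and 14 of 15 on the right were higher in EpSA, Krt8 being the exception.

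Genes that mark injured tubules were higher in EpSA, but 2 widely used ones lay close between the diets. Of 15 tested, 14 were higher (57.6% of all genes were), 10 by at least 0.5 (2.78% of all genes). The list median was 0.53, and at the other times it was between -0.28 and 0.16. Havcr1, encoding KIM-1, was at 1.06 FPKM in chow and 1.30 in EpSA (0.16), and Lcn2, encoding NGAL, at 1.83 and 1.89 (0.03). Cdkn1a, encoding the cell cycle inhibitor p21 (chr17:29090976-29100727, GRCm38, plus strand), was at 5.04 FPKM in chow and 15.3 in EpSA (1.43), between 4.33 and 12.2 in chow and between 5.47 and 21.7 in EpSA at the other times. Its difference at ZT 21 was larger, 2.09.

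Gdf15, a stress-induced cytokine, was at 2.86 FPKM in chow and 6.99 in EpSA (1.05), and both it and Cdkn1a also respond to growth arrest and cell stress outside injury. The epithelial keratins Krt19 (3.51 to 6.00 FPKM, 0.63) and Krt18 (15.4 to 24.0, 0.60) were higher, as were S100a6, a calcium-binding protein (13.4 to 21.2, 0.62), Itgb6, an epithelial integrin (8.42 to 13.5, 0.62), Vcam1, an adhesion molecule (1.41 to 2.51, 0.54), and Spp1, osteopontin (258 to 373, 0.53). Several of these are also normal in epithelium of the collecting system.

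Thin limb and urothelium markers lay on the same side as the injury list, and thick limb markers did not, with 4 of 12 higher and a median of -0.05. All 7 tested thin limb markers were higher (57.6% of all genes were), 3 by at least 0.5 (2.78% of all genes). Their median was 0.40 (0.696 with a pseudocount of 0.1), against -0.65 to -0.01 at the other times. Their summed level was 316 FPKM in chow and 347 in EpSA. Sptssb, a subunit of sphingolipid synthesis, was at 3.46 and 8.11 FPKM (1.03), and Slc14a2, the urea transporter of the inner medulla, at 8.53 and 16.7 (0.90), while Aqp1, the water channel that proximal tubules share, differed by 0.02. Of 7 urothelium markers, 6 were higher, 5 by at least 0.5 (57.6% and 2.78% of all genes), with a median of 0.55. Their summed level was 14.7 FPKM in chow and 24.3 in EpSA. At the other times the sum was 14.4 to 21.7 in chow and 11.7 to 20.8 in EpSA. The 5 were the uroplakins, of which Upk2 was at 1.11 and 3.03 FPKM (0.93) and Upk1a at 3.14 and 5.36 (0.62), and none of the list was at 0.

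In the collecting duct, Aqp2, the vasopressin-regulated water channel, was at 105 FPKM in chow and 188 in EpSA (0.83), the highest of the 14 means, and Aqp4 at 10.3 and 17.7 (0.74). The principal cell list as a whole did not share this. Over its 10 tested genes, Aqp2 and Aqp4 included, 5 were higher and 5 lower, with a median of 0.02. Aqp3 was at 43.4 and 49.6 FPKM (0.19) and Scnn1a, a sodium channel subunit, at 26.3 and 21.9 (-0.25). Osmolyte genes of the medulla were higher for 7 of 8, by a median of 0.41. The members furthest apart were Slc14a2 (0.90) and Aqp2 (0.83), which the thin limb and principal cell lists also hold. Akr1b3, aldose reductase (10.5 to 15.2 FPKM, 0.49), and Slc6a12, the betaine transporter (0.980 to 1.68, 0.44), followed. Proximal tubule markers lay slightly the other way, with 6 of 19 higher and a median of -0.10, and S3 segment markers with 2 of 11 higher and a median of -0.11. Of all genes, 57.6% were higher. The part that the share of medulla or of renal pelvis in each sample had in the injury, chaperone and osmolyte genes was not tested.

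Vessel, stroma and matrix genes were mostly on the higher side, where 57.6% of all genes lay, 2.78% by at least 0.5. Of 11 smooth muscle and pericyte markers, 10 were higher, 4 by at least 0.5, with a median of 0.45: Acta2, smooth muscle actin, was at 9.76 FPKM in chow, the lowest of all 14 means, and 19.2 in EpSA (0.91), and Tagln, transgelin, at 2.99 and 5.89 (0.79). Of 28 matrix genes, 27 were higher, 3 by at least 0.5, with a median of 0.33. These 3 were Ccn2, a matricellular target of TGF-beta (18.4 to 28.8 FPKM, 0.62), and the proteoglycans Dcn (7.05 to 11.1, 0.59) and Lum (0.907 to 1.79, 0.55), while Col1a1, the main fibrillar collagen, differed by 0.33. Endothelial markers were higher for 11 of 12 with a median of 0.29, and podocyte markers for 9 of 9 with a median of 0.25, none by 0.5.

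**Figure D5:**
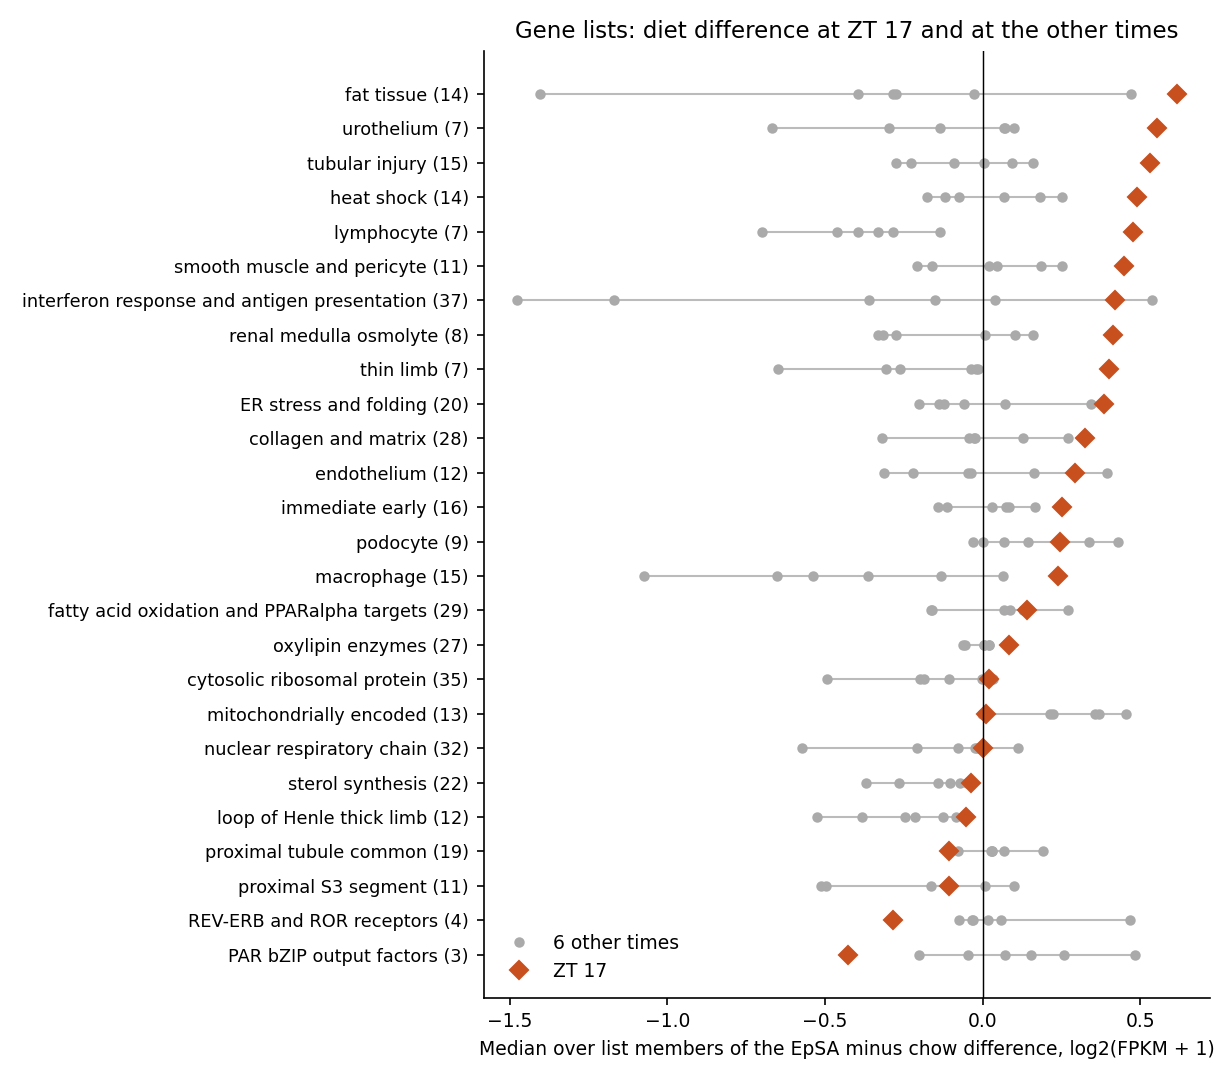
Median EpSA minus chow difference in log2(FPKM + 1) over the tested members of 26 gene lists (number of members in brackets) at ZT 17 (diamonds) and at the 6 other times (grey points). Fat tissue, urothelium and tubular injury lists had the highest medians at ZT 17 among those drawn, and REV-ERB and PAR bZIP factors the lowest.

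Hormone-regulated genes differed in both directions. Sgk1, a kinase induced by aldosterone and glucocorticoids (chr10:21882184-21999903, GRCm38, plus strand), was at 20.2 FPKM in chow and 44.0 in EpSA (1.09). Chow stayed between 16.0 and 22.2 FPKM at the other times, while EpSA was between 14.8 and 31.4, so EpSA at ZT 17 was the highest of the 14 means. The 13 tested glucocorticoid targets, Sgk1 included, were mixed, with 7 higher (57.6% of all genes were) and a median of 0.03. By at least 0.5, 3 were higher and 2 lower, against 2.78% and 1.12% of all genes. Cdkn1a (1.43) and Pdk4 (0.92), described above, were the other two at least 0.5 higher. Fkbp5, a co-chaperone of the receptor, was at 13.9 and 7.79 FPKM (-0.76), Mt2, a metallothionein, at 16.3 and 8.24 (-0.90), and Tsc22d3, encoding GILZ, at 16.8 and 18.8 (0.16). Fkbp5 was lower in EpSA at each of the other times as well.

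Cyp24a1, which breaks down active vitamin D (chr2:170482708-170497145, GRCm38, minus strand), was at 29.5 FPKM in chow and 10.1 in EpSA (-1.46), and Cyp27b1, which makes it, at 1.66 and 3.03 (0.60). Cyp24a1 in chow swung between 3.27 and 50.6 FPKM over the other times and was falling at ZT 17. Ren1, renin, was at 27.6 and 43.2 FPKM (0.63), and Ace, the angiotensin-converting enzyme, at 36.3 and 27.4 (-0.40). The vitamin D receptor gene Vdr differed by -0.19.

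Several further protein-coding genes were far apart. Aldh1a3, an enzyme of retinoic acid synthesis, was at 4.62 FPKM in chow and 16.4 in EpSA (1.63), the highest of the 14 means, against 3.64 to 7.62 in chow and 1.73 to 9.46 in EpSA at the other times. On the lower side, Serpina1a, an alpha-1-antitrypsin gene with close copies, was at 18.7 and 7.80 FPKM (-1.16), Rnf24, a membrane ubiquitin ligase, at 20.5 and 9.53 (-1.03), and Srd5a2, steroid 5-alpha-reductase, at 9.22 and 4.22 (-0.97). Ttr, transthyretin, was at 138 and 89.0 FPKM (-0.63).

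Housekeeping programmes were nearly level between the diets at ZT 17. The median was 0.00 over 32 nuclear respiratory chain genes, 0.02 over 35 cytosolic ribosomal protein genes and 0.01 over 13 mitochondrially encoded protein genes, none of which was apart by 0.5. The mitochondrial ribosomal RNA mt-Rnr2, chosen after its values were seen, was at 1033 FPKM in chow and 2393 in EpSA (1.21), and was higher at each other time by 0.42 to 0.78. NRF2 and antioxidant genes had a median of 0.06, with Hmox1, haem oxygenase, at 14.9 and 25.1 FPKM (0.71) as the 1 member of 22 apart by 0.5. Of all genes, 2.78% were higher and 1.12% lower by at least 0.5.

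Short genes took a large share of the extremes. Of the 41 genes at least 1 higher, 16 were protein-coding, 8 were microRNA genes and 6 were small nucleolar or Cajal body RNAs, and 18 (43.9%) had exons of under 200 bases in all, against 226 (1.69%) of the genes compared. Of the 25 at least 1 lower, 5 were protein-coding, 5 were microRNA genes and 4 were antibody or T cell receptor segments, and 9 (36.0%) were that short. Of all 13344 genes compared, 11341 were protein-coding and 72 were microRNA genes. A further 70 were small nucleolar or Cajal body RNAs, and 26 were antibody or T cell receptor genes. FPKM divides by length, so few fragments make a high value in a short gene, and the depth behind the means was unknown. Mir6942 (0.343 to 2.88 FPKM, 1.53), Mir26b (3.00 to 0.470, -1.44) and Mir6955 (3.79 to 0.610, -1.57) were such genes, and their values are of fragments over the precursor locus and not of mature microRNA.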

How the data were processed

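RNA of mouse kidney was sequenced as paired reads of 150 bases on an Illumina NovaSeq, per the labels' protocols. The authors deposited, per the file headers, 1 value per gene, diet and time in rhythm-analysis tables of chow and EpSA; the unit is not written there and the values were read as FPKM, each the mean of 3 mice, since 100% of them end in the decimals that means of 3 values with 2 decimals give. The aligner, counter, strand setting, genome build and library depths are not given in the sources used here, so no interval from counts can be given. The authors' rhythm statistics were not used.

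From the deposited FPKM, differences of log2(FPKM + 1) were computed (pseudocount 1) for genes with a mean of at least 1 over the 14 means. Departure of ZT 17 from the other times was tested with limma 3.58.1 (R 4.3.3) on log2(FPKM + 1), in a model of time, diet and a diet term for ZT 17 with 9 coefficients, 14 means and 5 residual degrees of freedom, the pair at ZT 17 being assumed to vary like the others. P-values were adjusted over all genes by Benjamini-Hochberg (threshold 0.05), and the step was checked on simulated data. With 1 mean per group, p-values measure only the spread between times.

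Genes were named as the 15 highest and 15 lowest differences with an informative symbol, the 10 lowest p of the departure test, all clock genes, and in each of the 46 gene lists up to 4 members with the largest absolute difference of at least 0.2, with further list members given as context. Some genes that this rule names are not reported here. The comparison, lists and named genes were chosen with earlier results of these data known. Symbols came from the deposited IDs (52073 of 56691 had one), gene positions from GENCODE M21 (GRCm38), promoters from RefSeq (GRCm38.p6). Alternatives changed the pseudocount, the filter, the fold, the scaling and the times used; summaries and figures used Python 3.11.15 with pandas 2.3.3 and matplotlib 3.10.9.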

Additional observations from a re-analysis of the deposited data

Results flagged for a closer look

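For 9 named genes the ZT 17 difference was at least 0.5 in log2(FPKM + 1) and opposite in sign to the difference at all 6 other times. Each was higher in EpSA at ZT 17 and lower in EpSA at every other time: Retn by 0.95 (others at most -0.10), Mal2, a membrane-trafficking protein of epithelia, by 0.70 (at most -0.06), and Apoa4, an apolipoprotein, by 0.67 (at most -0.05). Clec3b, or tetranectin, differed by 0.64 (at most -0.05), Krt19 by 0.63 (at most -0.04), Trac by 0.58 (at most -0.01) and Cd79b by 0.56 (at most -0.01). Sfn, an epithelial 14-3-3 protein, differed by 0.54 (at most -0.12) and Marcks, a substrate of protein kinase C, by 0.51 (at most -0.06).

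In limma's test of departure from the other times, the unadjusted p of these genes lay between 0.0002176 for Apoa4 and 0.006694 for Krt19, and the adjusted p was 0.999 for each. Apoa4, Clec3b, Mal2, Sfn, Marcks, Retn and Cd79b were named for being among the 10 lowest p of that test, so their pattern is not separate support for it.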

How the results depend on the processing

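No paired analysis was possible because the deposited columns are means with no value per mouse, and for the same reason no mouse could be left out. The 66 genes at least 1 apart (41 higher, 25 lower) became 174 (112, 62) with a pseudocount of 0.1, 110 (69, 41) with 0.5, 102 (68 higher) without the filter, 23 (15, 8) with a mean of at least 5 FPKM, and 327 (231, 96) at a 1.5-fold threshold. Without genes of under 200 exon bases, an alternative chosen after seeing the data, 39 (23, 16) were left. Of the differences of the 178 named genes under pseudocounts of 0.1 and 0.5, the median difference set to 0 and quantile normalization, 689 moved by less than the SD of the differences over the 6 other times, 23 moved by more and none reversed.

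The count of genes departing from the other times was 0 under each of the other settings, leaving out any single time included (359 to 847 at an unadjusted p under 0.05), with 2 exceptions. Without the filter it was 130 (74 higher, 56 lower), of which 2 had a mean of at least 1 FPKM. With only ZT 13 and ZT 21 as other times it was 44 (18 higher, 26 lower), from 1 residual degree of freedom.

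List medians moved for circadian repressors (0.392 at a mean of at least 5), thin limb (0.696 at pseudocount 0.1), lymphocyte markers (0.733 and 0.689 at pseudocounts 0.1 and 0.5, 0.227 without the filter, 0.223 at a mean of at least 5) and oxylipin enzymes (0.148 at pseudocount 0.1, 0.152 at a mean of at least 5, 0.036 after quantile normalization). The cause was not tested. Setting the median difference to 0 or quantile normalization, counted after seeing the data, left all list counts named in the report within 1.5 times except ribosomal protein genes (14 higher), sterol synthesis (5) and mitochondrially encoded genes (3). Depth per mouse is unknown, so the precision of a single mean cannot be stated.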
